A study of Homo sapiens with 32 samples.

Results

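The ATF4 and CHOP transcription factor network is described here by 10 genes: ATF4, ATF3, ATF5, JDP2, DDIT3 (which encodes CHOP), CEBPB, CEBPG, TRIB3, CHAC1 and NUPR1. The genes were listed by name, and each was found once among the 60660 gene identifiers of the count table. The 32 libraries were made from poly(A) RNA of HCT116, an established line of human colorectal cancer cells. The comparisons address how loss of IGF2BP3 or its relative IGF2BP2, both RNA-binding proteins, bears on RNA levels at rest and under stress of the endoplasmic reticulum (ER). Parental cells had 4 libraries in DMSO and 4 in tunicamycin, from 2 parental samples with 2 replicates each. IGF2BP3 knockout cells had 6 libraries in DMSO and 6 in tunicamycin, from clones A3, D12 and E4. IGF2BP2 knockout cells also had 6 and 6, from clones B7, F6 and G6.

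All of these lines, the parental cells included, carry a doxycycline-inducible OsTIR1 transgene. Every knockout line is 1 sorted Cas9 clone: A3 and E4 share a guide and D12 had another, and B7 and F6 share a guide and G6 had another. Parental and IGF2BP3 knockout cells received tunicamycin at 5 µg/mL for 4 h, with DMSO as the control. For the IGF2BP2 knockout clones neither dose nor duration is given in the sources used here. The DMSO libraries of clone G6 are labelled as controls by title and as tunicamycin by their treatment field. The title decided their group here, and their DDIT3 counts of 64 and 58 lay inside the range of 39 to 84 over the other DMSO libraries.

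By GENCODE 29 on GRCh38, all 10 are protein-coding genes, and identifiers are given as in the count table. ATF4 (ENSG00000128272_15) lies at chr22:39519695-39522685 and ATF3 (ENSG00000162772_17) at chr1:212565334-212620777. ATF5 (ENSG00000169136_12) lies at chr19:49928702-49933935 and JDP2 (ENSG00000140044_13) at chr14:75427716-75474111. DDIT3 (ENSG00000175197_12) lies on the minus strand at chr12:57516588-57521737. CEBPB (ENSG00000172216_6), a gene of 1 exon, lies at chr20:50190734-50192689 and CEBPG (ENSG00000153879_9) at chr19:33373330-33382686. TRIB3 (ENSG00000101255_11) lies at chr20:362835-397559, CHAC1 (ENSG00000128965_13) at chr15:40952962-40956519 and NUPR1 (ENSG00000176046_9), on the minus strand, at chr16:28532708-28539174.

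Tunicamycin blocks N-linked glycosylation, so that misfolded protein builds up in the ER and the unfolded protein response starts. One arm of that response runs through the kinase PERK, which phosphorylates eIF2α. General translation then slows while ATF4 mRNA is translated better, and ATF4, a basic leucine zipper (bZIP) factor, binds DNA with partners such as C/EBP proteins and raises the genes for CHOP, ATF3, TRIB3 and CHAC1. RNA counts show the level of an mRNA and not how well it is translated, so they do not measure the amount of ATF4 protein.

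RefSeq promoter windows (GRCh38.p14, 250 bases before to 50 after a transcription start, 300 bases in all) were at hand for 9 of the 10 genes, with 20 windows between them. The C/EBP-ATF element, the composite site that ATF4 binds with a C/EBP partner, was searched on both strands as TGATGNAAN. It occurred in 4 of the 20 windows, those of ATF3, JDP2, CHAC1 and CEBPG, against 3.61% of all 35116 windows. Among ATF4 and CHOP target genes outside the network, 10 of 38 windows (26.3%) held it. The stretches below are shown because these are the only members with a match; capitals mark the element, which on CHAC1 reads on the opposite strand.
ATF3: aaggtcaggaTGATGGAAGgctgtcatatt
JDP2: tagccggggcTGATGCAACccgtcccgccg
CHAC1: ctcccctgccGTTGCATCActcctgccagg
CEBPG: gcgcggcgtcTGATGCAACctgccggcaac

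The ATF3 stretch is chr1:212565206-212565235 on the plus strand, with the element 191 to 183 bases before the start. The JDP2 stretch is chr14:75427996-75428025, plus strand, with the element 16 to 8 bases before the start. The CHAC1 stretch is chr15:40953251-40953280, plus strand, with the element 210 to 202 bases before the start. The CEBPG stretch is chr19:33374061-33374090, plus strand, with the element 42 to 34 bases before the start. A palindromic cyclic AMP response element, TGACGTCA, was in none of the 20 windows and in 1.85% of all windows. An ER stress element, written as CCAAT, 9 bases and CCACG, was also in none of them and in 0.0769% of all windows. With the last base dropped (CCAAT, 9 bases, CCAC) it was found in 0.316% of all windows and in 1 member, DDIT3, where 2 overlapping windows hold it. That stretch is chr12:57520553-57520657 on the minus strand, written along the gene, with the 2 half-sites in capitals 97 to 80 bases before the start.
DDIT3: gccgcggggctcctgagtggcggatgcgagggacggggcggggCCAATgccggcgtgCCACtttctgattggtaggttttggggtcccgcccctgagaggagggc

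A match in letters is a description of these windows and not a measured binding site. For the other members, no match says only that these letters are not in these windows.

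Levels are given in CPM, the count scaled by the normalized library total to a common depth. Library totals ran from 16651438 to 24913021 counts, with a median of 21441776. More genes had a count in replicate 2 libraries (23423 to 24267) than in replicate 1 libraries (21259 to 23139). In DMSO, IGF2BP3 was at 76.5 ± 6.37 CPM (SD, n = 4) in parental cells and at 27.6 ± 10.8 CPM (SD, n = 6; 18.7 to 41.7 CPM) in its knockout. IGF2BP2 was at 175.9 ± 17.96 CPM (SD, n = 4) in parental cells and at 86.3 ± 5.20 CPM (SD, n = 6) in its own knockout, so neither targeted mRNA was absent. Of 10 epithelial markers, EPCAM, CDH1, KRT8, KRT18 and KRT19 were at 10 CPM or more in every library, while CDX1, LGALS4 and VIL1 stayed under 1 CPM in all. Of 10 markers of other cell types 8 stayed under 1 CPM in every library, ACTA2 and COL1A1 being the exceptions, and the summed level of these markers was 6.20 to 13.0 CPM in DMSO and 7.37 to 13.5 CPM in tunicamycin. Nothing in the labels says that the 2 replicates of a line were separate cultures, so p-values measure the spread between these libraries, which may be technical.

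The 10 members covered a wide range of levels in resting cells. Per kilobase of annotated exon (GENCODE 29, all exons of a gene merged), ATF4 led in parental DMSO libraries with 152.7 ± 14.7 CPM per kb (SD, n = 4). The partners CEBPG and CEBPB followed with 16.6 ± 1.44 and 13.0 ± 0.575 CPM per kb. TRIB3 at 10.1 ± 1.28 and ATF5 at 10.00 ± 0.428 CPM per kb did not differ beyond their spread. ATF3 (2.71 ± 0.253), DDIT3 (1.62 ± 0.449), CHAC1 (1.13 ± 0.261) and JDP2 (0.887 ± 0.127 CPM per kb) lay lower, where DDIT3 overlapped CHAC1 and CHAC1 overlapped JDP2. The order of the 10 genes by mean was the same in all 3 genotypes in DMSO.

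In tunicamycin the order by level changed, again in the same way in all 3 genotypes. ATF4 still led in parental cells with 363.5 ± 33.4 CPM per kb (SD, n = 4), and DDIT3 came next with 180.3 ± 22.5 CPM per kb. TRIB3 followed with 126.1 ± 13.7, then CEBPB with 65.0 ± 7.20, CHAC1 with 49.4 ± 9.67, CEBPG with 45.5 ± 3.51, ATF3 with 30.6 ± 4.11, ATF5 with 11.1 ± 1.499 and JDP2 with 3.54 ± 0.364 CPM per kb. The libraries of CEBPB overlapped those of CHAC1, and those of CHAC1 overlapped CEBPG. In bulk RNA, fewer cells carrying a transcript and less of it per cell cannot be told apart.

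NUPR1, which encodes a small stress-induced chromatin protein, was at the limit of detection. It had 2 counts in all over the 16 DMSO libraries, in 2 libraries, and 7 counts over the 16 tunicamycin libraries, in 5 libraries. No library held more than 2. A count of 0 allows up to 3 counts, or 0.120 CPM in the deepest and 0.180 CPM in the shallowest library, for counting error only, so no fold is given. NUPR1 was removed by the filter on low counts in every comparison, and 9 members were tested.

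**Figure D1:**
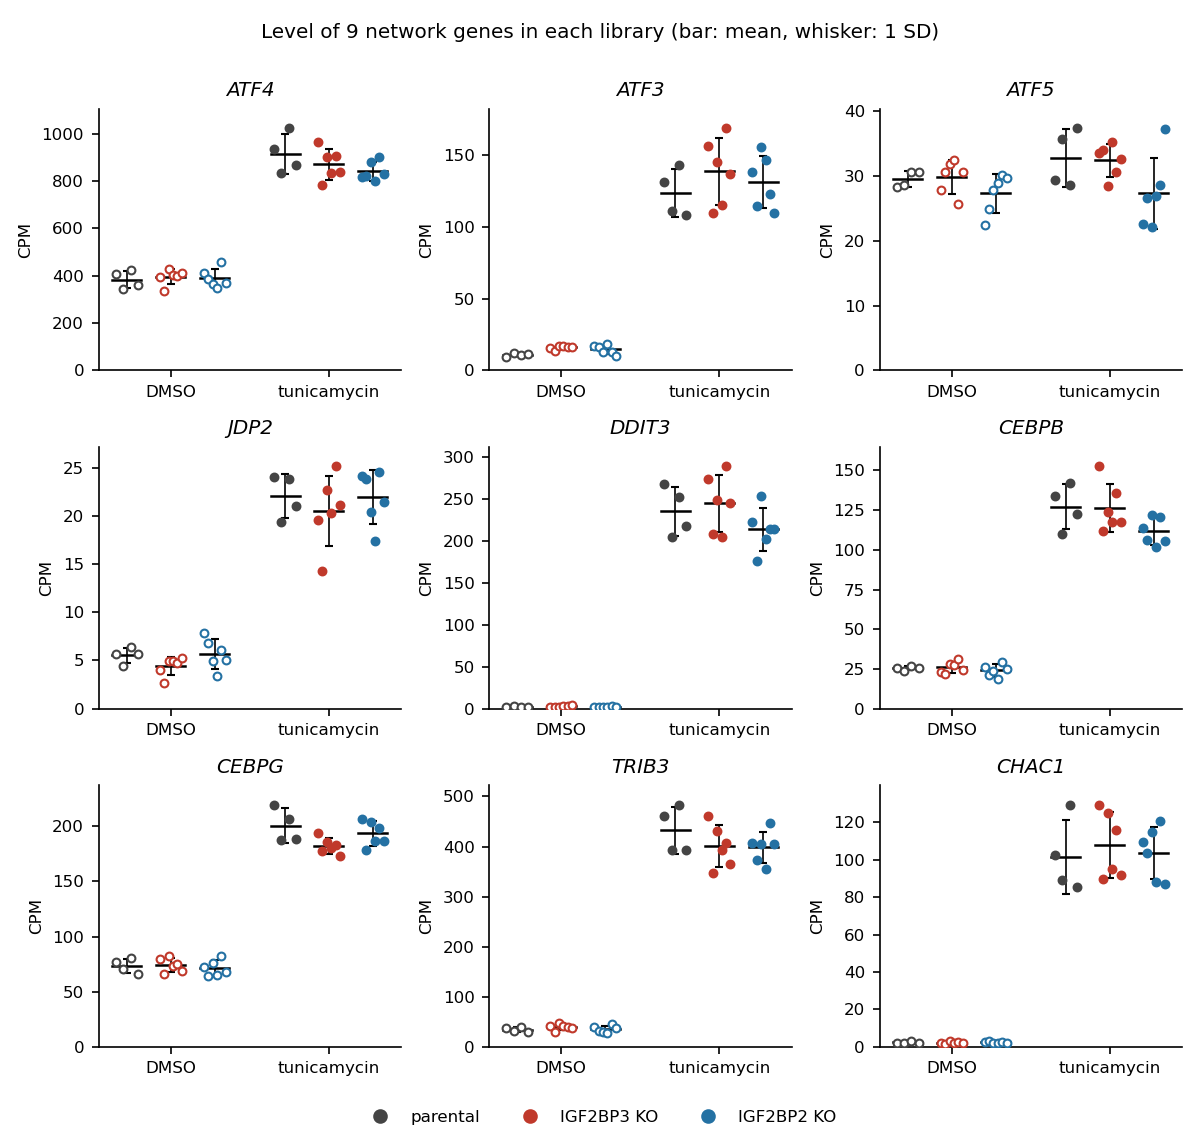
Levels of 9 network genes in CPM (vertical axis, linear, from 0), 1 point per library, in DMSO (open) and tunicamycin (filled) for parental, IGF2BP3 knockout (KO) and IGF2BP2 KO cells. Grey points are parental, red IGF2BP3 KO and blue IGF2BP2 KO, bars are group means and whiskers 1 SD (n = 4, 6 and 6). For every gene but ATF5 the 16 tunicamycin libraries lie above the 16 DMSO libraries.

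Tunicamycin raised 8 of the 9 tested members in each genotype and lowered none. In parental cells 12.1% of the 14828 genes tested were called higher and 13.8% lower at an adjusted p under 0.05 (edgeR's quasi-likelihood test, p adjusted over all genes by the Benjamini-Hochberg method). In IGF2BP3 knockout cells 15.3% of 15074 genes were higher and 16.8% lower, and in IGF2BP2 knockout cells 18.2% of 14952 were higher and 20.1% lower. The median log2 fold change of the 9 members was 2.32 in parental, 2.28 in IGF2BP3 knockout and 2.22 in IGF2BP2 knockout cells, where the median of all genes tested was -0.01 in each genotype.

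DDIT3, the gene for CHOP, a bZIP factor that dimerizes with C/EBP proteins, had the largest change of the members. In parental DMSO its 4 libraries held 1.64, 1.71, 2.20 and 2.91 CPM, and in parental tunicamycin 204.8, 217.8, 252.3 and 267.9 CPM. The groups stood far apart, with 39 to 67 counts per DMSO library against 4519 to 5755 in tunicamycin. The log2 fold change was 6.81 (SE 0.161, edgeR's adjusted p = 3.85e-09). In IGF2BP3 knockout cells DDIT3 went from 2.07 to 3.99 CPM (median 2.71, n = 6) in DMSO to 204.6 to 289.1 CPM (median 247.1, n = 6) in tunicamycin, a log2 fold change of 6.45 (SE 0.122, edgeR's adjusted p = 4.48e-14). In IGF2BP2 knockout cells it went from 1.97 to 2.91 CPM (median 2.24) to 176.0 to 254.0 CPM (median 214.3), a log2 fold change of 6.54 (SE 0.103, edgeR's adjusted p = 2.64e-15). By line the fold ran from 73.5 in E4 to 120.9 in parental sample 2. Within replicate 1 the log2 ratio of mean CPM was 7.28 in parental, 6.69 in IGF2BP3 knockout and 6.59 in IGF2BP2 knockout cells, and within replicate 2 it was 6.37, 6.17 and 6.49. Exons of MARS1, on the opposite strand, share 355 bases (27.2%) of the merged DDIT3 exons, and the same-strand gene AC022506.1 shares 105 bases. Whether the counting used the strand is not given in the sources used here. MARS1 had a median of 259.0 CPM in DMSO and 347.9 CPM in tunicamycin. DDIT3 was near 2 CPM in DMSO, and AC022506.1 had a median of 0.

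ATF4 itself, the regulator, had the smallest change of the 8 called members in every genotype. Its parental libraries held 344.7, 361.0, 407.0 and 422.6 CPM in DMSO and 831.7, 867.3, 933.7 and 1022.9 CPM in tunicamycin. The groups did not overlap, and the log2 fold change was 1.25 (SE 0.0767, edgeR's adjusted p = 1.95e-06). It was 1.14 (SE 0.0590) in IGF2BP3 knockout and 1.11 (SE 0.0518) in IGF2BP2 knockout cells. By line the fold ran from 2.05 in B7 to 2.41 in parental sample 2. Of its pseudogenes, ATF4P3 and ATF4P4 had 53 and 118 counts over all 32 libraries and ATF4P1 and ATF4P2 had none. How reads that match both ATF4 and such a copy were counted is not given in the sources used here.

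ATF3, a bZIP factor that represses or activates with its partner, went from 9.65, 10.8, 11.4 and 12.1 CPM in parental DMSO to 108.5, 110.9, 131.7 and 142.9 CPM in parental tunicamycin. Its log2 fold change was 3.49 (SE 0.110, edgeR's adjusted p = 1.94e-08) in parental, 3.11 (SE 0.0992) in IGF2BP3 knockout and 3.17 (SE 0.0971) in IGF2BP2 knockout cells. Within replicate 1 the log2 ratios of mean CPM of ATF3 were 3.75, 3.25 and 3.28, and within replicate 2 they were 3.23, 2.94 and 3.05. JDP2, a repressor of the same bZIP family, went from 4.47, 5.62, 5.63 and 6.38 CPM to 19.4, 21.1, 23.9 and 24.1 CPM in parental cells, with no overlap. Its log2 fold changes were 2.00 (SE 0.108), 2.22 (SE 0.104) and 1.96 (SE 0.0987) in the same order of genotypes. JDP2 was the member with the lowest level per kb in tunicamycin among the 9 tested.

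ATF5, a bZIP factor that, like ATF4, is known for translational control through upstream reading frames, was the tested member that was not called. Its parental libraries held 28.3, 28.6, 30.6 and 30.7 CPM in DMSO and 28.5, 29.4, 35.7 and 37.4 CPM in tunicamycin, and the groups overlapped. The log2 fold change was 0.15 (95% interval -0.06 to 0.37, edgeR's adjusted p = 0.307) in parental, 0.12 (-0.02 to 0.27, adjusted p = 0.194) in IGF2BP3 knockout and -0.00 (-0.18 to 0.17, adjusted p = 0.992) in IGF2BP2 knockout cells. The upper ends of these intervals lay below the lower ends of the intervals of ATF4. Within replicate 1 the parental log2 ratio was -0.02 and within replicate 2 it was 0.30. Exons of NUP62, on the opposite strand, cover 21.2% of the merged ATF5 exons, and NUP62 stood at a median of 120.5 CPM in DMSO and 88.2 CPM in tunicamycin, and its part in the ATF5 counts was not tested.

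The C/EBP partners among the members, CEBPB and CEBPG, both rose. CEBPB, an activator and dimer partner of CHOP and ATF4, went from 23.9, 25.5, 25.7 and 26.6 CPM to 109.8, 122.6, 134.0 and 142.2 CPM in parental cells, a log2 fold change of 2.32 (SE 0.0745, edgeR's adjusted p = 1.94e-08). It was 2.28 (SE 0.0946) in IGF2BP3 knockout and 2.22 (SE 0.0828) in IGF2BP2 knockout cells. CEBPG, a partner without an activation domain of its own, went from 66.3, 70.2, 76.6 and 80.5 CPM to 187.5, 188.5, 206.8 and 219.6 CPM, a log2 fold change of 1.45 (SE 0.0718). It was 1.30 (SE 0.0499) in IGF2BP3 knockout and 1.44 (SE 0.0600) in IGF2BP2 knockout cells. Neither gene's tunicamycin libraries overlapped its DMSO libraries. Other C/EBP genes, outside the network, did not rise. CEBPA was called lower, with log2 fold changes of -1.24 in parental, -1.04 in IGF2BP3 knockout and -1.02 in IGF2BP2 knockout cells. CEBPD was not called (-0.10, -0.14 and -0.13), and CEBPE was not tested.

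The downstream targets TRIB3 and CHAC1 rose strongly. TRIB3, a pseudokinase that restrains ATF4 and AKT signalling, went from 30.3, 31.4, 37.1 and 39.3 CPM to 392.9, 393.2, 461.8 and 483.8 CPM in parental cells, a log2 fold change of 3.65 (SE 0.103, edgeR's adjusted p = 1.17e-08). It was 3.34 (SE 0.0925) in IGF2BP3 knockout and 3.49 (SE 0.0749) in IGF2BP2 knockout cells. CHAC1, an enzyme that degrades glutathione, went from 2.01, 2.04, 2.14 and 3.13 CPM to 85.6, 88.9, 102.5 and 129.3 CPM, a log2 fold change of 5.44 (SE 0.165, edgeR's adjusted p = 1.67e-08). It was 5.59 (SE 0.140) in IGF2BP3 knockout and 5.42 (SE 0.108) in IGF2BP2 knockout cells. Their paralogs did not follow: of TRIB1, TRIB2 and CHAC2, the 3 tested, none rose in any genotype, and TRIB1 and TRIB2 fell in each. TRIB2 fell by 1.34 on the log2 scale in parental, 1.07 in IGF2BP3 knockout and 1.16 in IGF2BP2 knockout cells, while NUPR2 was not tested.

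**Figure D2:**
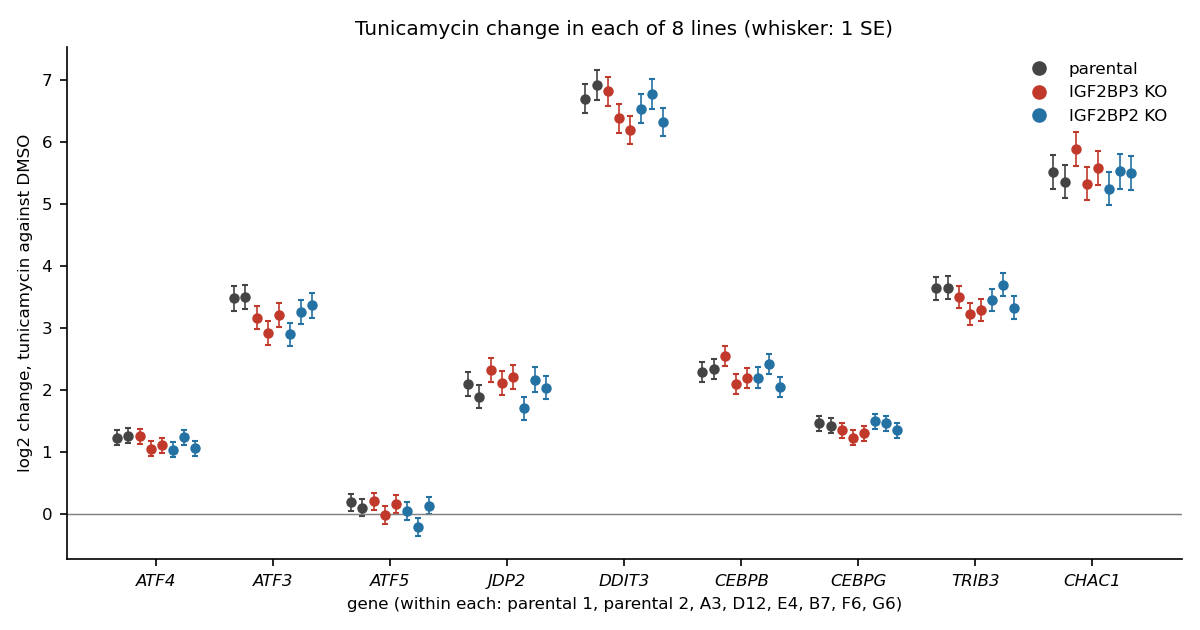
Log2 change of 9 members with tunicamycin against DMSO (vertical axis) in each of the 8 lines, from 1 fit of all 32 libraries; whiskers are 1 SE. DDIT3 and CHAC1 lie highest, and ATF5 lies around 0. For ATF3 both parental samples (3.48 and 3.51) lie above all 6 clones (2.90 to 3.37). For JDP2 all 3 IGF2BP3 KO clones (2.12 to 2.33) and IGF2BP2 KO clone F6 (2.17) lie above both parental samples (1.90 and 2.10). In both genes the gap is smaller than the SE of a line, and no difference in response was called. The share of all genes with such an order was not counted.

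Of the 37 listed ATF4 and CHOP targets outside the network, 35 of the 36 tested rose in parental cells and 35 of 36 in IGF2BP3 knockout cells, with medians of 1.27 and 1.12 on the log2 scale. In IGF2BP2 knockout cells 34 of 35 rose, with a median of 1.14, and 1 fell. The exception was BCL2L11, which encodes the pro-apoptotic protein BIM: its log2 fold change was -0.07 in parental and -0.10 in IGF2BP3 knockout cells (not called) and -0.19 in IGF2BP2 knockout cells (edgeR's adjusted p = 0.0253). The 3 largest increases in parental cells were those of DDIT4 (5.41, SE 0.0992), an inhibitor of mTORC1, SESN2 (4.15, SE 0.0690), a sestrin of the same axis, and ASNS (3.46, SE 0.313), which makes asparagine. In the knockouts DDIT4 rose by 5.15 and 5.16, SESN2 by 3.99 and 4.14, and ASNS by 3.67 and 3.31, in IGF2BP3 and IGF2BP2 knockout cells respectively.

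Other bZIP factors moved less uniformly. Of 45 listed, 37 were tested: 21 rose and 3 fell in parental, 23 rose and 3 fell in IGF2BP3 knockout, and 23 rose and 4 fell in IGF2BP2 knockout cells, with medians of 0.33, 0.29 and 0.32. NFIL3, a repressor, rose by 2.69 (SE 0.0888), FOSB, an AP-1 subunit, by 2.16 (SE 0.111), and XBP1, the factor of the IRE1 arm, by 2.10 (SE 0.0908) in parental cells. NFE2L3, a member of the NRF family, fell by 0.27 (SE 0.0714), the only gene of the list called lower in parental cells with a mean count of at least 100. The network's median change of 2.32 stood beside 0.33 for the other bZIP genes, given as a description only. Members and lists were chosen with earlier results of these data known, and the network's median includes TRIB3 and CHAC1, which are not bZIP genes.

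At rest, ATF3 was the single member that differed between IGF2BP3 knockout and parental cells. It held 9.65, 10.8, 11.4 and 12.1 CPM in the parental DMSO libraries and 13.7 to 17.2 CPM (median 16.5, n = 6) in the IGF2BP3 knockout ones. All 6 knockout libraries lay above all 4 parental libraries. The share of all genes with such a separation was not counted. The log2 fold change was 0.55 (SE 0.0861, 95% interval 0.36 to 0.73, edgeR's adjusted p = 0.00553), and 1.61% of all 14568 genes tested were called. The log2 ratio of mean CPM was 0.69 within replicate 1 and 0.43 within replicate 2. The call depended on the fit: with all 32 libraries in one fit the adjusted p was 0.0815, and with counts summed per line, which makes the clone the unit, it was 0.0506, while the log2 fold change stayed at 0.55.

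For the other 8 members the intervals were narrow for the abundant genes and wide for the scarce ones. In these fits each library counted as a unit, although the 6 knockout libraries came from 3 clones and the 4 parental ones from 2 samples. The intervals of this and the other genotype comparisons of levels thus do not take the clone as the unit. The log2 difference of IGF2BP3 knockout from parental cells in DMSO was 0.04 for ATF4 (95% interval -0.10 to 0.18), 0.01 for CEBPG (-0.12 to 0.13), 0.03 for CEBPB (-0.15 to 0.22) and 0.01 for ATF5 (-0.14 to 0.16). For TRIB3 it was 0.20 (-0.02 to 0.41), for CHAC1 -0.07 (-0.49 to 0.35), for JDP2 -0.32 (-0.68 to 0.03) and for DDIT3 0.42 (-0.09 to 0.92). DDIT3 had 39 to 84 counts per DMSO library, and its log2 ratio of mean CPM was 0.64 within replicate 1 and 0.25 within replicate 2.

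IGF2BP2 knockout cells had no member called against parental cells at rest, and 0.0137% of all genes were. ATF3 was again the member with the largest difference, 0.42 (95% interval 0.08 to 0.76, edgeR's adjusted p = 0.983), with 10.0 to 18.2 CPM (median 14.9, n = 6) that overlapped the parental range. Clone G6, whose labels conflict, had the lowest mean ATF3 of these clones in DMSO (11.3 CPM, against 16.9 in B7 and 15.7 in F6). Leaving G6 out therefore had to raise the difference of ATF3, which was then 0.58 (95% interval 0.31 to 0.84, edgeR's adjusted p = 0.101). The ratio of DDIT3 changed sign between the replicate numbers, at 0.52 within replicate 1 and -0.22 within replicate 2, as did that of CHAC1 at -0.13 and 0.27. With all clones ATF3 was the 1 member of 9 under an unadjusted p of 0.05, as were 690 of 14564 genes in all, and DESeq2 called 0 members. The parental libraries serve both knockout comparisons, so the 2 differences of ATF3 are not independent. Between the knockouts no member was called in DMSO (0.589% of genes called), and ATF3 differed by 0.14 (95% interval -0.13 to 0.40). There 0 members had an unadjusted edgeR p under 0.05, against 1995 of 14250 genes, and DESeq2 called 0.

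**Figure D3:**
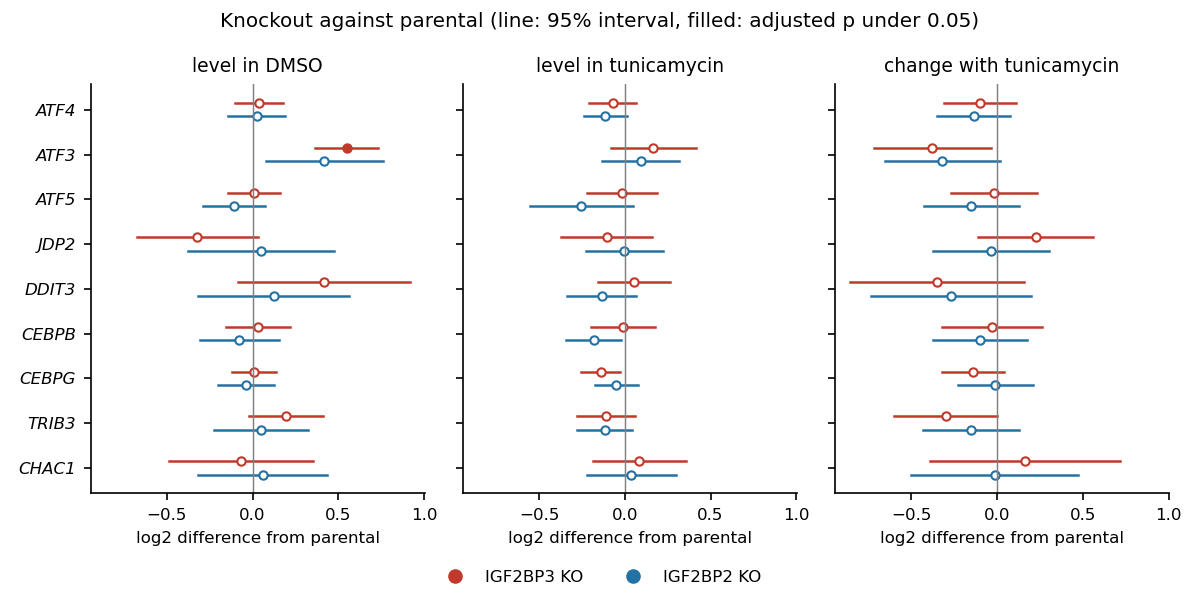
Log2 difference of each knockout from parental cells (horizontal axis) in DMSO, in tunicamycin and in the change with tunicamycin, for 9 members; lines are 95% intervals and filled points have an adjusted p under 0.05. ATF3 in IGF2BP3 knockout cells in DMSO is the 1 filled point, at 0.55.

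Under tunicamycin no member was called between any pair of genotypes. IGF2BP3 knockout against parental cells had 0.718% of genes called, IGF2BP2 knockout against parental cells 0.00694% and IGF2BP3 against IGF2BP2 knockout 0.391%, and DESeq2 called 0 members in each. ATF3, higher in the IGF2BP3 knockout at rest, differed there by 0.17 (95% interval -0.08 to 0.41) once tunicamycin was given. The members under an unadjusted edgeR p of 0.05 were CEBPG in IGF2BP3 knockout against parental cells (-0.14, 95% interval -0.25 to -0.03), CEBPB in IGF2BP2 knockout against parental cells (-0.18, -0.34 to -0.02), and CEBPB (0.17, 0.02 to 0.33) and ATF5 (0.24, 0.00 to 0.48) between the knockouts. Genes under that p numbered 1502 of 14626, 1005 of 14419 and 2073 of 14066 in the 3 comparisons. DDIT3 differed from parental cells by 0.05 (-0.16 to 0.27) in IGF2BP3 knockout and -0.14 (-0.34 to 0.07) in IGF2BP2 knockout cells.

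The tunicamycin response itself was then compared between genotypes through the interaction of genotype and treatment. No member was called in any of the 3 comparisons, and 0% of all genes were, with 0 genes called by DESeq2. Genes under an unadjusted edgeR p of 0.05 numbered 257 of 15586 in IGF2BP3 knockout against parental cells. They numbered 219 of 15478 in IGF2BP2 knockout against parental cells and 284 of 15571 between the knockouts. Each share lay under the p threshold of 0.05 itself, so the 0 calls do not show that the genotypes responded alike. The difference between replicate numbers is part of the spread in these fits as well. For ATF4 the response of IGF2BP3 knockout cells differed from that of parental cells by -0.10 (95% interval -0.31 to 0.11), and that of IGF2BP2 knockout cells by -0.14 (-0.35 to 0.07). For DDIT3 these were -0.35 (-0.86 to 0.15) and -0.27 (-0.73 to 0.20). For ATF3 they were -0.38 (-0.72 to -0.04, edgeR's adjusted p = 1.00) and -0.32 (-0.66 to 0.01). ATF3 in IGF2BP3 knockout cells was the 1 member under an unadjusted p of 0.05. The median difference over the 9 members was -0.10 and -0.14 against parental cells, where all genes had medians of 0.01 and -0.00. Both comparisons share the parental libraries.

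Among the targets, GDF15 and TNFRSF10B were the 2 of 35 tested that were called at rest between IGF2BP3 knockout and parental cells, both higher. Of all 14568 genes tested there, 1.61% were called. GDF15, a secreted stress cytokine, was at 47.8 ± 2.85 CPM (SD, n = 4) in parental and 75.9 ± 5.88 CPM (SD, n = 6) in IGF2BP3 knockout cells, a log2 fold change of 0.66 (SE 0.0614, edgeR's adjusted p = 7.00e-05). TNFRSF10B, the death receptor DR5 and a CHOP target, was at 146.7 ± 4.35 and 172.2 ± 9.66 CPM, a log2 fold change of 0.23 (SE 0.0515, edgeR's adjusted p = 0.0400). With the counts of each line summed, edgeR still called GDF15 (adjusted p = 0.00470), but a single fit of all 32 libraries did not (adjusted p = 0.109). TNFRSF10B was called in neither (adjusted p = 0.175 and 0.443), nor without any 1 of the 4 parental libraries, clone A3 or clone E4 (adjusted p from 0.0600 to 0.159). The 35 targets had a median difference of -0.00. Under tunicamycin GDF15 differed by 0.22 (SE 0.131) and TNFRSF10B by -0.06 (SE 0.0690) between these genotypes, and neither was called. Both genes also differed in DMSO among the IGF2BP2 knockout clones (edgeR's adjusted p = 5.44e-06 for GDF15 and 0.00871 for TNFRSF10B). There 9 of 36 targets were called, against 8.28% of all 15356 genes. In the IGF2BP3 knockout clones SLC6A9 was the 1 of 36, against 1.17% of all 15517 genes. No target was called between genotypes in any other comparison of levels or responses, and no other bZIP gene or paralog was called between genotypes.

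Clones of the same knockout were compared next, each against the spread between its 2 libraries. In the IGF2BP2 knockout the DMSO level of 2 of 9 members differed among clones, with 8.28% of 15356 genes called. These are counts of the main fit, which has no term for the replicate number. With that term more members and more genes were called, as the last section gives. TRIB3 held 32.1 and 38.7 CPM in B7, 27.8 and 30.5 CPM in F6 and 38.2 and 46.2 CPM in G6, so F6 lay below both others (edgeR's adjusted p = 0.0420). JDP2 held 6.83 and 7.83 CPM in B7, 3.39 and 4.98 CPM in F6 and 5.07 and 6.10 CPM in G6, with B7 above the others (edgeR's adjusted p = 0.0416). Each call was lost when either of 2 clones was left out: TRIB3 without F6 or without G6, JDP2 without B7 or without F6. Those were the clones with the lowest and highest mean, so leaving 1 out had to narrow the range of clone means. In every fit without 1 of the 3 clones 1 of 9 members was called: TRIB3 without B7, JDP2 without G6 and ATF3 without F6. In the full comparison ATF3 held 16.6 and 17.2 CPM in B7, 13.1 and 18.2 CPM in F6 and 10.0 and 12.6 CPM in G6, so that 1 library of G6 lay inside the parental range of 9.65 to 12.1 CPM and the other just above it (edgeR's adjusted p = 0.0844).

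In the IGF2BP3 knockout no member's DMSO level was called among clones, with 1.17% of 15517 genes called. DDIT3 and JDP2 were the 2 members under an unadjusted edgeR p of 0.05, as were 1308 genes, and DESeq2 called 0 members. DDIT3 held 2.07 and 2.18 CPM in A3, 2.34 and 3.08 CPM in D12 and 3.30 and 3.99 CPM in E4, so E4 lay highest of the 8 lines. JDP2 held 2.69 and 4.06 CPM in A3, 4.93 and 4.97 CPM in D12 and 4.77 and 5.22 CPM in E4, and A3 lay lowest of the 8 lines. A3 and E4, which share a guide, were thus the lowest and highest of the 3 clones for DDIT3. ATF3 held 13.7 and 15.8 CPM in A3, 17.0 and 17.2 CPM in D12 and 16.4 and 16.6 CPM in E4, all above the parental maximum of 12.1 CPM.

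**Figure D4:**
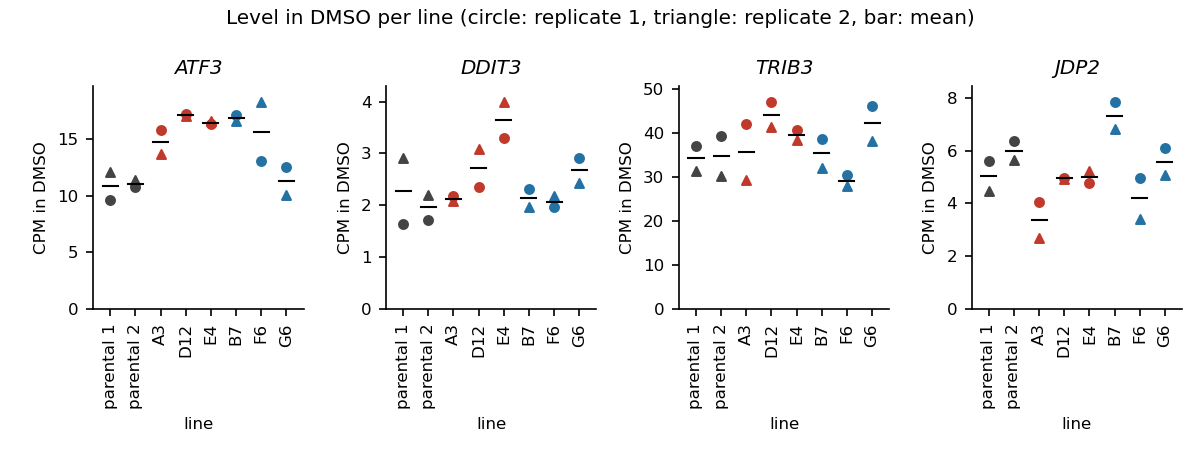
Level in DMSO (CPM, vertical axis, from 0) of ATF3, DDIT3, TRIB3 and JDP2 in each of the 8 lines, with replicate 1 as circles, replicate 2 as triangles and the line mean as a bar. The ATF3 means of A3, D12 and E4 lie above those of both parental samples, and clone G6 lies next to the parental samples.

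No member's tunicamycin response was called different among clones of either knockout, with 0% of genes called in each. In the IGF2BP3 knockout 0 members and 93 of 15517 genes had an unadjusted edgeR p under 0.05. In the IGF2BP2 knockout these were 0 members and 222 of 15356 genes, and DESeq2 called 0 members in both. Both shares of genes lay under the p threshold of 0.05 itself, so the 0 calls do not show that the clones responded alike. The difference between replicate numbers is part of the spread in these fits. By line the fold of CHAC1 ran from 38.1 in B7 to 59.3 in A3, that of TRIB3 from 9.33 in D12 to 13.0 in F6 and that of ATF3 from 7.47 in B7 to 11.4 in parental sample 2. The fold of CEBPB ran from 4.14 in G6 to 5.88 in A3, that of CEBPG from 2.35 in D12 to 2.83 in B7 and that of JDP2 from 3.27 in B7 to 5.01 in A3. For DDIT3, CEBPG, TRIB3, CHAC1 and JDP2 the line with the highest DMSO level had the lowest fold and the line with the lowest DMSO level the highest, and since the fold contains that level the pair is not independent. JDP2 in DMSO was highest in B7 at 7.33 CPM and lowest in A3 at 3.38 CPM. Under tunicamycin B7 and A3 were still its highest and lowest lines, at 24.0 and 17.0 CPM, a ratio of 1.41 against 2.17 in DMSO.

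Likeness to ATF4 was taken across the 32 libraries, after the mean of each treatment and replicate number was taken out, over 10144 genes with a mean count of at least 100. The closest genes outside the network were YARS1 (Pearson r = 0.84), SHMT2 (r = 0.78) and POM121 (r = 0.76). YARS1 is a tRNA synthetase and SHMT2 an enzyme of mitochondrial one-carbon metabolism. Of the members TRIB3 came closest (r = 0.80), then CEBPB (r = 0.61) and JDP2 (r = 0.46). The genes closest to DDIT3 were FBRS (r = 0.72), DBF4B (r = 0.71) and UBALD2 (r = 0.71), and of the members CEBPB (r = 0.58). These libraries share lines and normalization, so the values describe likeness over these libraries only.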

How the data were processed

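The authors deposited whole-number counts per gene for 32 libraries. Per the submitters' processing notes STAR 2.7.5c and the build hg38 were used; the counting tool, annotation and strand setting are not given in the sources used here. Of 60660 identifiers, 60419 matched a symbol or name in the reference table. Groups came from sample titles. The counts were fitted with edgeR 4.0.16 in R 4.3.3 (TMM, filterByExpr, quasi-likelihood test, Benjamini-Hochberg adjustment over all genes, threshold 0.05). Genotype comparisons had no covariate, while the line was a covariate in every fit of the tunicamycin change. The SE is the one implied by the F statistic, and 95% intervals use it. CPM is TMM-normalized. Replicate libraries were compared by chi-square (4.95 to 28.2 per degree of freedom over the 16 pairs of replicates), and none was a duplicate. Alternatives included DESeq2 1.42.0. Fits were tested on simulated data. Figures were drawn with matplotlib. The members and lists were chosen with earlier results of these data known. All members are named, and up to 3 list genes per direction with the largest change in parental cells among called genes with a mean count of at least 100, with list genes called between genotypes. Gene positions and exon lengths come from GENCODE 29, and the counts may rest on another annotation.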

Additional observations from a re-analysis of the deposited data

Results flagged for a closer look

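With libraries of each group compared for 1 that stands apart (Dixon's test at the 95% level, 54 groups of 4 or 6 libraries over 9 members), 2 libraries were marked, where chance marks about 1 group in 20. ATF4 in replicate 2 of clone A3 in DMSO stood at 334.2 CPM, below the other 5 IGF2BP3 knockout libraries at 395.4 to 430.1 CPM. CHAC1 in replicate 1 of parental sample 2 in DMSO stood at 3.13 CPM, above the other 3 parental libraries at 2.01 to 2.14 CPM.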

How the results depend on the processing

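The 8 members called with tunicamycin in each genotype were called under every alternative fit of those comparisons. Of the members called between IGF2BP3 knockout and parental cells in DMSO (1), 0 remained with all 32 libraries in one fit, with counts summed per line and when a log2 fold change above 1 was also asked for. For ATF3, that member, the adjusted p ran from 3.57e-06 (DESeq2) to 0.0815 over 14 other fits, and it was called in 12 of them. Among IGF2BP3 knockout clones in DMSO 1 member (DDIT3) was called without the filter on low counts. Among IGF2BP2 knockout clones 4 were called without that filter and 6 with the replicate block (the replicate number of the labels as a term), against 2, and 1 in each fit that left out 1 clone. ATF5 in IGF2BP3 knockout cells was called with counts summed per line (log2 fold change 0.14, adjusted p = 0.0274). Deviations of same-numbered libraries correlated with r over 0.1 in 119 of 120 pairs (0.0878 to 0.549, median 0.375). Libraries of the same replicate number thus shared a difference. The replicate numbers were still not taken as pairs, since the lowest r lay under the threshold of 0.1. The main fits have no term for this difference, and it is part of the spread they test against. Over all genes, IGF2BP3 knockout against parental cells gave 235 calls in DMSO and 105 in tunicamycin. These became 507 and 271 with DESeq2, 427 and 185 without the filter, 519 and 333 with the replicate block, and 47 and 34 with counts summed per line, and the DMSO count was 72 with all 32 libraries in one fit. Between the knockouts, 84 calls in DMSO and 55 in tunicamycin became 354 and 379 with DESeq2, 193 and 191 without the filter, 162 and 213 with the replicate block, 221 and 423 with all 32 libraries in one fit, and 1 and 1 summed per line. IGF2BP2 knockout against parental cells gave 2 calls in DMSO, and 12 with DESeq2, 8 without clone F6 and 47 without clone G6; in tunicamycin it gave 1, then 3, 14 and 46. Parental cells gave 3837 calls with tunicamycin, 6030 with the block, 5889 summed per line and 2486 without parental sample 1 replicate 1. Leaving out D12 or E4 took the 4830 calls of the IGF2BP3 knockout to 3179 and 3164. Clone levels gave 182 calls in the IGF2BP3 knockout (389 without the filter, 291 with DESeq2, 547 with the block, 77 without D12, 27 without E4) and 1272 in the IGF2BP2 knockout (3572 with the block, 370 without B7, 614 without F6). Clone responses of the IGF2BP2 knockout gave 0, and 68 without the filter and 7 with the block. Leaving out the DMSO libraries of clone G6 was not run for comparisons among clones, nor for comparisons of genotypes in tunicamycin, which do not use them. Depth limits DDIT3 and CHAC1 in DMSO, and NUPR1 throughout.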
